A study of Mus musculus with 26 samples.

Results

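The 41 genes described here carry out or control DNA replication and cell division. They were matched by gene symbol in the deposited expression tables, not by a measured value. The list was, however, chosen with earlier results of these data known. All 41 were among the 56941 genes listed. All 41 also passed the low-count filter that left 14730 genes for testing. They fall into 7 role lists: 11 genes of the replication origin and fork, 3 of nucleotide supply, 4 regulators of the step from G1 into S phase, 4 cyclin and Cdk1 genes of S phase and mitosis, 3 mitotic kinases, 6 genes of the spindle checkpoint and its target the anaphase-promoting complex, and 10 genes of chromosomes, kinetochores, spindle and cytokinesis.

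A dividing cell licenses its replication origins in G1 by loading the MCM helicase, copies its DNA in S phase and separates the copies in mitosis under Cdk1 with its cyclins. Motor neurons come from dividing progenitors of the ventral neural tube and leave the cycle for good when they are born, so transcripts of these genes in a motor neuron culture come mainly from cells that still divide, which can be progenitors, glia or fibroblasts. In bulk RNA such as this, fewer dividing cells and less of these RNAs per cell cannot be told apart.

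The cultures were spheroids grown from HBG3 cells, mouse embryonic stem cells in which GFP is driven by the promoter of HB9 (Mnx1), a motor neuron transcription factor. It is a single reporter line, listed with the genotype of heterozygous blastocysts. Every group shared the same differentiation: expansion on feeder cells with LIF, then retinoic acid and purmorphamine in suspension, the trophic factors CNTF and GDNF from day 5, and seeding on fibrin at about day 8. The biochemical arm held 6 control libraries, 6 labelled low intensity and 6 labelled high intensity, and treatment in it was medium carrying factors released by muscle (myokines). The design text speaks of medium from optically stimulated and from resting optogenetic muscle but does not tie either to the words low and high. The mechanical arm held 4 static libraries, grown with a magnetically controlled silicone array that was never moved, and 4 actuated libraries, whose array was driven for 30 min a day at 4 Hz. No label gives a batch or a date, and none says that replicates were separate cultures. The p-values below therefore measure the spread between these libraries, estimated over all 5 groups together, which may be technical.

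Of 26 libraries, 21 held at least 1000000 counts on protein-coding genes and were fitted together: control 1, 2, 3, 5 and 6, low intensity 1 to 5, high intensity 1, 2, 3 and 6, static 1, 2 and 4, and all 4 actuated. Their totals ran from 1551334 to 3971348 counts in the biochemical arm and from 7269276 to 13162635 in the mechanical arm. Levels below are counts per 1000000 of the TMM-scaled library (CPM) unless given as transcripts per 1000000 (TPM), which also divide by gene length. A count of 3, the upper limit that a count of 0 allows, was worth 0.863 to 1.40 CPM in the controls and 0.223 to 0.391 CPM in the mechanical arm, and it covers counting error only. Between 0 and 9 of the 41 genes had no count in a control library, and none had 0 in any other fitted library. The cultures matched their label in part: Mnx1 and Chat, markers of motor neurons, were detected in all 21 libraries at means of only 4.17 and 4.96 TPM, and the pluripotency genes Pou5f1, Dppa5a and Nanog had no count in 16, 17 and 13 of the 21.

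On the length-corrected scale, the most abundant of the 41 was Pcna, the sliding clamp of DNA polymerases, at 38.5 ± 15.5 TPM (SD, n = 21). It was followed by Prc1, which bundles the microtubules of the central spindle, at 34.7 ± 17.6 TPM, and by Rrm1, the large subunit of ribonucleotide reductase, at 31.2 ± 12.95 TPM. These SDs are over the libraries of all 5 groups and do not measure whether the 3 genes differ, which was not tested. The order changed with the group: Cdk1 had the highest mean in low intensity, at 49.5 TPM beside 41.4 for Pcna, and Prc1 in actuated libraries, at 45.7 beside 40.7. In the controls Mcm6, a helicase subunit, came after Pcna, at 18.6 TPM beside 24.5, ahead of Prc1 at 16.9 and Rrm1 at 12.5. The highest of the other role lists were Cdk1 at 28.1 TPM, Ccne2 at 15.8 TPM, Ube2c at 15.5 TPM and Aurka at 6.56 TPM. The scarcest were Cdc45, E2f1 and Cdc6, at 2.29, 1.49 and 1.11 TPM. The tables also list 5 pseudogenes of Ccnb1, Ccnb2, Pcna and Tyms, with which reads could be shared, and none of them held more than 15 counts in a library.

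**Figure D1:**
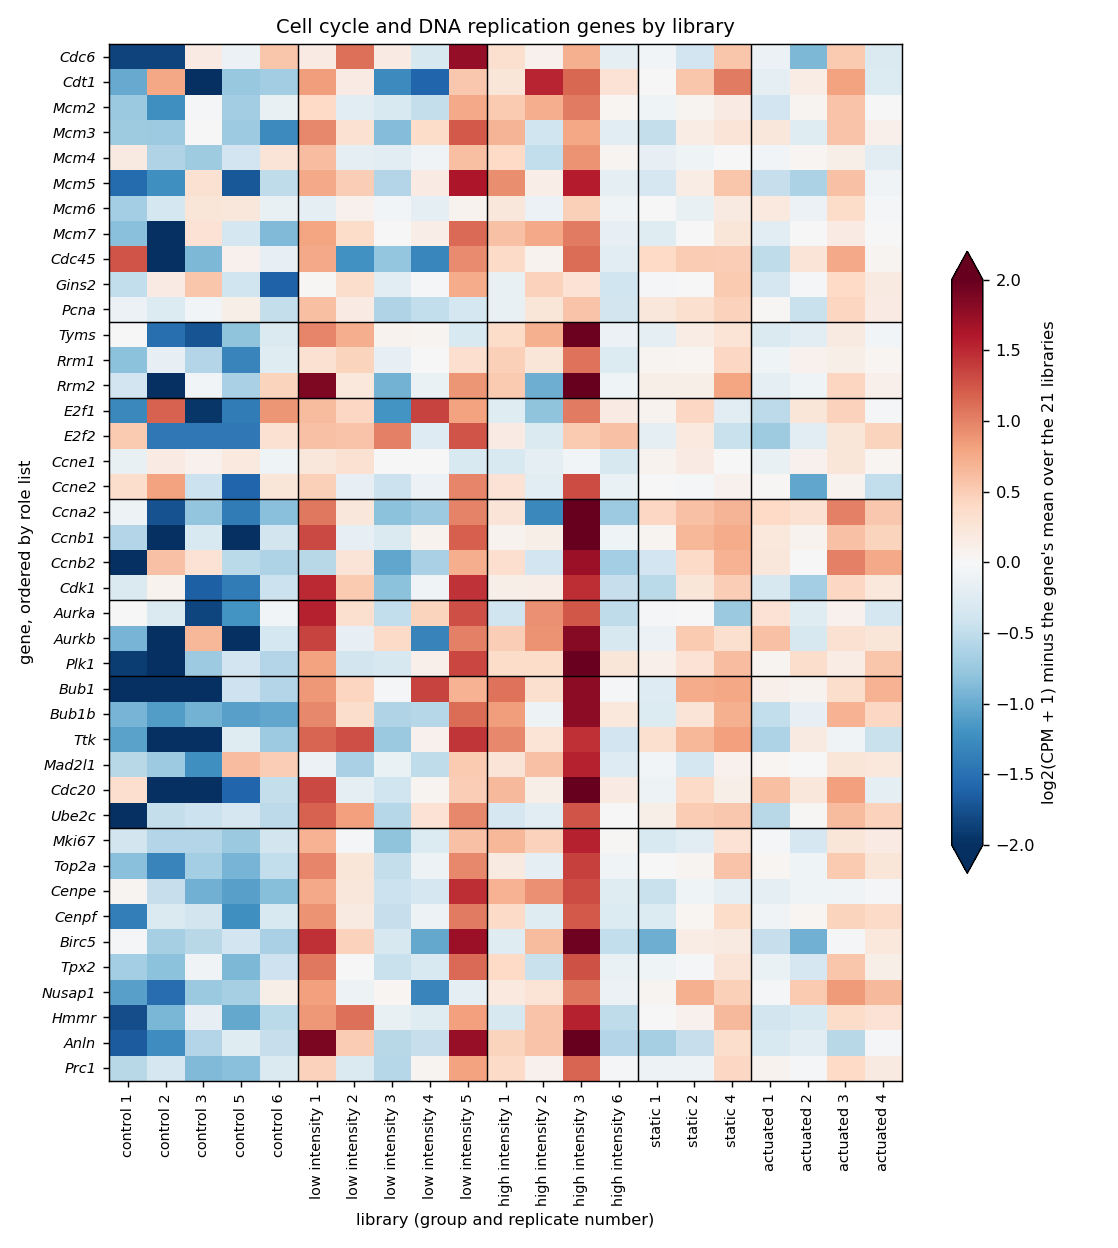
Level of each of the 41 genes (rows, grouped by role list) in each of the 21 fitted libraries (columns), as log2(CPM + 1) minus that gene's mean over the 21 libraries. Control columns are mostly blue, and high intensity 3, low intensity 1 and low intensity 5 are red across nearly all rows, while replicates beside them are near white.

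The comparison of high intensity with control asks whether medium carrying muscle factors, in the group with that label, went with different levels of these transcripts. Of the 41 genes, 40 had a fitted log2 fold change above 0, where 50.3% of all genes tested did. Their median was 1.19, or 2.28-fold, beside 0.0033 for all genes. In edgeR's quasi-likelihood test with a Benjamini-Hochberg adjusted p under 0.05, 5 of 41 were called, where 0.462% of all genes were, all of them higher: Bub1b, Mki67, Rrm1, Top2a and Cenpe. At an unadjusted p under 0.05 there were 30 of 41, all higher, beside 8.67% of all genes that were higher at that threshold. In 10 of 41 every high-intensity library stood above every control, where this held for 2.07% of all genes: Mcm2, Ccnb1, Plk1, Bub1, Bub1b, Ube2c, Mki67, Top2a, Cenpf and Prc1.

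Mki67 encodes Ki-67, the surface coat of mitotic chromosomes and the usual histological marker of cycling cells. It gave 133, 114, 113, 102 and 133 CPM in controls 1, 2, 3, 5 and 6, and 273, 236, 499.5 and 174 CPM in high intensity 1, 2, 3 and 6. The groups did not overlap, and the lowest treated library was closer to the controls than to the highest treated one. The fitted difference was 2.47-fold (log2 1.31, SE 0.26, edgeR adjusted p = 0.0364).

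Bub1b encodes BubR1, which holds back the anaphase-promoting complex until chromosomes are attached. Its controls were nearly equal, at 10.1, 8.76, 9.998, 8.89 and 9.27 CPM, and the high-intensity libraries held 36.6, 18.65, 71.5 and 23.4 CPM. It had the largest difference of the 5, 3.96-fold (log2 1.99, SE 0.39, edgeR adjusted p = 0.0357), with no overlap.

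Top2a encodes topoisomerase II alpha, which untangles sister chromatids. It stood at 58.4, 41.7, 65.4, 54.75 and 74.8 CPM in the controls and at 119, 92.8, 272 and 101 CPM in the high-intensity libraries. These groups did not overlap either, and 3 of the 4 treated libraries lay within a narrow band below high intensity 3. The difference was 2.46-fold (log2 1.30, SE 0.29, edgeR adjusted p = 0.0448).

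Rrm1, which makes deoxynucleotides for replication, gave 26.5, 42.05, 31.15, 18.25 and 40 CPM in the controls and 66.1, 55.9, 101 and 39.1 CPM in the high-intensity libraries. High intensity 6 fell inside the control range. The difference was 2.05-fold (log2 1.04, SE 0.23, edgeR adjusted p = 0.0435).

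Cenpe encodes a kinetochore motor that moves chromosomes to the spindle equator. It gave 54.6, 38.2, 26.5, 24.3 and 29.0 CPM in the controls and 86.5, 100.1, 132 and 44.35 CPM in the high-intensity libraries, with high intensity 6 again among the controls. The difference was 2.59-fold (log2 1.37, SE 0.32, edgeR adjusted p = 0.0496).

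**Figure D2:**
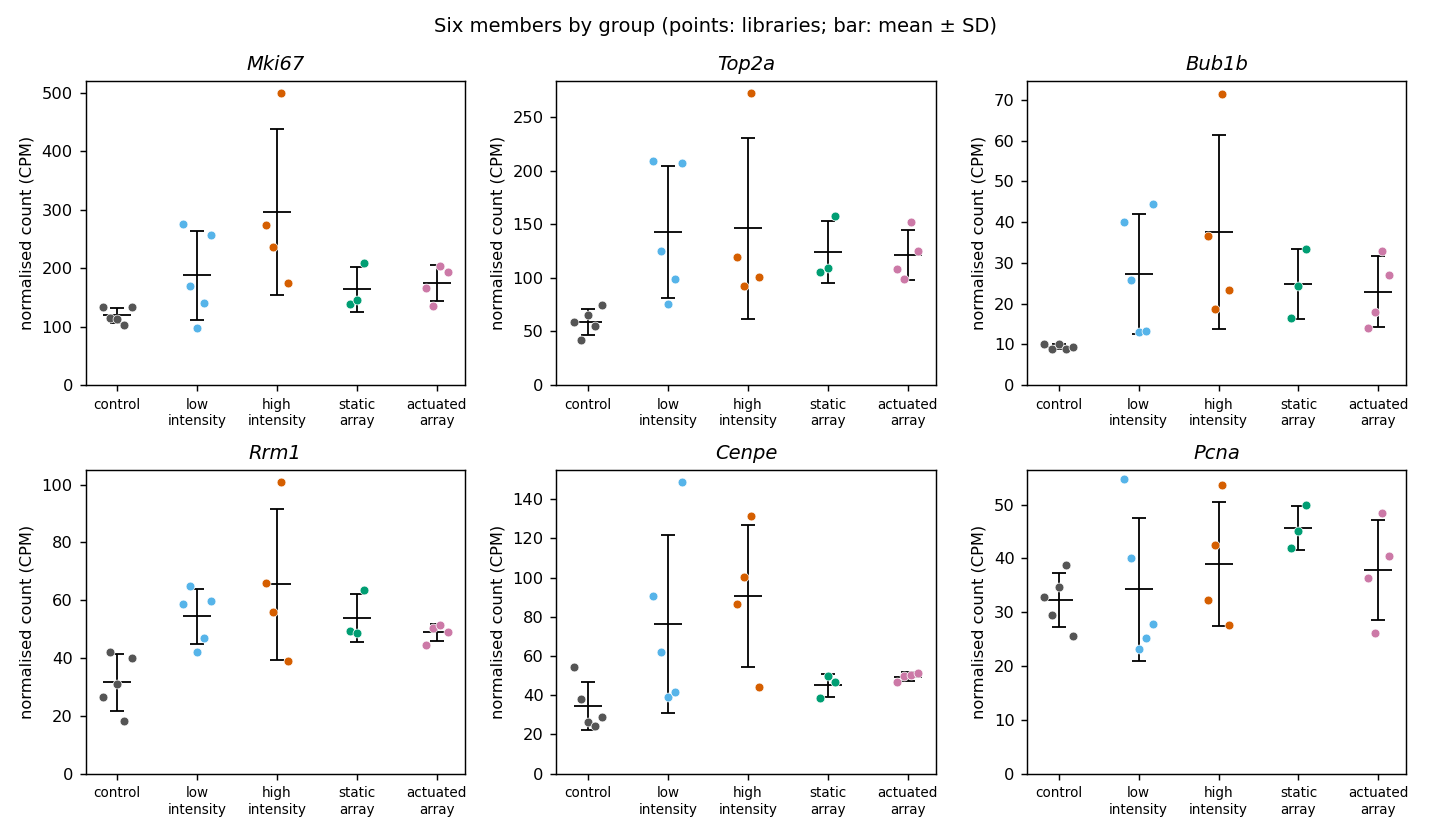
Normalised counts (CPM, linear axis from 0) of Mki67, Top2a, Bub1b, Rrm1, Cenpe and Pcna in the 5 groups, each point a library, with bars at the mean ± SD. High intensity 3 is the top point of its group in all 6 panels, and Pcna, at 25.5 to 38.8 CPM in the controls and 27.55 to 53.55 CPM in high intensity, overlaps between those groups.

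These 5 calls depended on single libraries. None of the 41 genes was called once control 3, control 5, high intensity 1, high intensity 2, high intensity 3, actuated 1, static 1 or static 2 was left out, 1 remained called without control 2, 2 without actuated 2 or actuated 4, 3 without actuated 3, 8 without low intensity 3 and 17 without high intensity 6. The share of all genes called moved too. It was at most 0.0137% in the omissions with none of the 41 called, and 0.123% without control 2. Without actuated 2, 4 and 3 it was 0.116%, 0.109% and 0.334%. It was 0.728% without low intensity 3 and 2.7% without high intensity 6. Without high intensity 3, which was the highest of its group for 38 of the 41 genes, 38 were still above 0 and 19 had an unadjusted p under 0.05, with a median log2 fold change of 0.76. With all 26 libraries, shallow ones included, 0 were called, where 0.0402% of all genes were, and 22 had an unadjusted p under 0.05, where 7.04% of all genes did.

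Among the 11 origin and fork genes, 5 had an unadjusted p under 0.05 and the median log2 fold change was 0.78. Mcm2, a helicase subunit, gave 14.1, 9.81, 23.5, 14.5 and 21.7 CPM in the controls and 35.1, 40.9, 51.1 and 24.8 CPM in high intensity, with no overlap (log2 1.17, SE 0.28, edgeR adjusted p = 0.0538). Mcm6, of the same ring, was nearly level at 60.1 ± 15.9 CPM (SD, n = 5) in the controls and 71.6 ± 14.3 (SD, n = 4) in high intensity, with a log2 fold change of 0.26 (SE 0.17). Pcna likewise gave 32.8, 29.4, 34.6, 38.8 and 25.5 CPM in the controls and 32.3, 42.6, 53.55 and 27.55 in high intensity, which overlap. Its log2 fold change was 0.27 (SE 0.24, unadjusted p = 0.273). Whether the helicase subunits differed from each other was not tested. Cdc6 and Cdt1, which load that ring, gave log2 differences of 0.78 and 1.65, with SEs of 0.82 and 0.70.

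All 3 nucleotide supply genes had an unadjusted p under 0.05, with Tyms, thymidylate synthase, at a log2 difference of 1.95 (SE 0.52, edgeR adjusted p = 0.0741) and Rrm2 at 1.29 (SE 0.62). None of the 4 G1/S regulators did, and their median was 0.28. Ccne1, a cyclin that opens S phase, was the only one of the 41 genes below 0, at -0.27 (SE 0.18, unadjusted p = 0.151), with 20.2 ± 2.23 CPM (SD, n = 5) in the controls and 16.7 ± 1.56 (SD, n = 4) in high intensity. On the log2(TPM + 1) scale, where the median of all genes was 0.53, Ccne1 was above 0. Its means there were 9.53 TPM in the controls and 12.2 TPM in high intensity. Ccne2, the partner of Ccne1, gave 10.1, 14.0, 5.38, 1.87 and 9.27 CPM in the controls and 9.59, 6.49, 20.4 and 6.89 in high intensity. Only high intensity 3 lay outside the control range of Ccne2.

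Of the 4 genes for mitotic cyclins and Cdk1, 3 had an unadjusted p under 0.05. Cdk1, the kinase that drives entry into mitosis, gave 11.2, 14.7, 3.85, 4.68 and 10.1 CPM in the controls and 15.1, 15.4, 40.5 and 9.92 in high intensity. High intensity 3 alone stood far from the others, and the log2 fold change was 1.14 (SE 0.48, unadjusted p = 0.0244). The 3 mitotic kinases had a median of 1.83. Aurka, which matures centrosomes, gave 6.61, 5.26, 1.15, 2.34 and 6.38 CPM in the controls and 4.79, 13.4, 17.2 and 4.41 in high intensity, so that 2 treated libraries lay inside the control range. Plk1, which acts at most steps of mitosis, stood higher by 2.33 on the log2 scale (SE 0.57, edgeR adjusted p = 0.0547) without overlap.

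The 6 spindle checkpoint genes had the highest median, 2.14, and all 6 had an unadjusted p under 0.05. Bub1, a checkpoint kinase, had no count in controls 1, 2 and 3 and 3.74 and 3.19 CPM in controls 5 and 6, beside 12.4, 6.89, 20.85 and 5.23 CPM in high intensity. The groups did not overlap, and the fitted log2 difference of 3.06 (SE 0.71, edgeR adjusted p = 0.051) was the largest among the 41 genes. Ttk, also called Mps1, the kinase at the head of the checkpoint, gave 1.15, 0, 0, 2.81 and 1.74 CPM in the controls and 7.82, 4.46, 11.45 and 2.48 in high intensity, with high intensity 6 inside the control range. Mad2l1, the Mad2 protein that captures Cdc20, gave 6.04, 5.26, 3.46, 15.0 and 13.6 CPM in the controls and 11.35, 14.6, 29.0 and 7.71 in high intensity. For Ube2c, the ubiquitin-conjugating enzyme of the anaphase-promoting complex, the controls held 0, 6.31, 6.54, 7.02 and 6.09 CPM and high intensity held 7.06, 7.70, 23.3 and 9.09. The lack of overlap is slight, 7.06 against 7.02 CPM.

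All 10 genes of chromosomes, kinetochores, spindle and cytokinesis had an unadjusted p under 0.05, with log2 fold changes from 0.99 (Tpx2) to 2.06 (Anln). Prc1 gave 28.8, 33.6, 22.7, 23.4 and 34.8 CPM in the controls and 55.7, 45, 96.1 and 41.9 in high intensity. The groups did not overlap, and the fitted log2 difference was 1.04 (SE 0.26, edgeR adjusted p = 0.055). Anln, an actin-binding protein of the cleavage furrow, ran from 12.7 to 118 CPM in high intensity and from 5.46 to 16.4 CPM in the controls, which overlap.

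The promoters of the 5 called genes are shown to let the reader see what letters they share, and they are descriptions of sequence only. They are the 250 bases before each RefSeq transcription start (GRCm38.p6), read 5′ to 3′ on the gene's strand, with capitals marking matches on either strand to the CHR element (TTTGAA or its variant TTCGAA), the CCAAT box (the letters CCAAT, or ATTGG when on the opposite strand) or an E2F-type site. The E2F-type site was searched as TTCCCGC and also as TTGGCGC, with the further forms TTCGCGC and then TTGCCGC. The second of these forms, read on the opposite strand, can overlap a CCAAT box. The windows lie at chr2:118597961-118598210 (+) for Bub1b, chr7:135716380-135716629 (-) for Mki67, chr11:99024190-99024439 (-) for Top2a, chr7:102441445-102441694 (+) for Rrm1 and chr3:135212313-135212562 (+) for Cenpe.
Bub1b: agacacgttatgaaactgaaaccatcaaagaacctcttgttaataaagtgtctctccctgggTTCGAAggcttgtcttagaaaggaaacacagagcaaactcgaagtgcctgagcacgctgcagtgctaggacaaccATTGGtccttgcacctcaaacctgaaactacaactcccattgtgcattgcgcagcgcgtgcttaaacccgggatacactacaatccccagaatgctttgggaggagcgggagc
Mki67: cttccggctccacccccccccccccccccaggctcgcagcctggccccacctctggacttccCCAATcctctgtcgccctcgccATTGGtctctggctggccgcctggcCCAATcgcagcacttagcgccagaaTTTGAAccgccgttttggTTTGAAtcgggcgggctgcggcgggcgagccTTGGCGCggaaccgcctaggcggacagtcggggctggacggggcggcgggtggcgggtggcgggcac
Top2a: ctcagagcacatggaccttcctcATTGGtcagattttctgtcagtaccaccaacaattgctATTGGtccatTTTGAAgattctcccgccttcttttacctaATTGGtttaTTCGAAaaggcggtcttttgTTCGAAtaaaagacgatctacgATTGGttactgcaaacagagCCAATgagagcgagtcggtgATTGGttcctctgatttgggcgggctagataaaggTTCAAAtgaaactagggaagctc
Rrm1: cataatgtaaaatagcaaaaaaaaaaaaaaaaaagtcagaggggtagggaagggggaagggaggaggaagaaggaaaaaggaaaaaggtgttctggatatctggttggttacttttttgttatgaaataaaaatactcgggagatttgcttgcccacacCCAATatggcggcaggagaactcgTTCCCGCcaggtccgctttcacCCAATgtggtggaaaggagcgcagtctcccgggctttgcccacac
Cenpe: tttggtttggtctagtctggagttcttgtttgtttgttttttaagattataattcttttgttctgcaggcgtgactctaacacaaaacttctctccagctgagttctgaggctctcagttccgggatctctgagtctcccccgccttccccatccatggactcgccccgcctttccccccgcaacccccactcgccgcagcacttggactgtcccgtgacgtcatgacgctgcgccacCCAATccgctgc
Top2a held 4 CHR and 6 CCAAT matches, Mki67 2 and 3 with 1 E2F-type match, and Bub1b 1 CHR and 1 CCAAT match. Rrm1 held 2 CCAAT and 1 E2F-type match, and Cenpe a single CCAAT match at its start-site end. RefSeq promoters were found for 35 of the 41 genes, 38 promoters in all. A CHR match was in 31.6% of these and in 17.1% of all 32851 promoters of that length, a CCAAT match in 76.3% and 33.8%, an E2F-type match in 28.9% and 7.89%, and CHR with CCAAT together in 31.6% and 6.02%. Every one of the 12 promoters with a CHR match therefore also held CCAAT. By role, CHR matches were in 50% of the 6 spindle checkpoint promoters and 30% of the 10 origin and fork promoters, and E2F-type matches in 0% and 50% of them. The CHR and E2F-type shares were 30% and 20% for the 10 chromosome and spindle promoters. They were 66.7% and 66.7% for the 3 of cyclins and Cdk1, and 25% and 0% for the 4 of G1/S regulators. For the 3 of nucleotide supply they were 0% and 66.7%, and for the 2 of mitotic kinases 0% and 0%.

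The comparison of low intensity with control used the same controls, so its values stand beside those above and do not test them again. All 41 genes had a fitted log2 fold change above 0, where 49.1% of all genes did, and the median was 1.24, or 2.36-fold, beside -0.0083 for all genes. Of the 41, 1 gene, Top2a, passed at an edgeR adjusted p under 0.05, where 0.597% of all genes did. At an unadjusted p under 0.05 there were 26 of 41, all higher, beside 8.57% of all genes. In 6 of 41 the groups did not overlap, where 1.28% of all genes were higher without overlap: Rrm1, Ccnb1, Plk1, Bub1, Bub1b and Top2a.

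Top2a gave 209, 125, 75.3, 98.6 and 207 CPM in low intensity 1 to 5, all above the highest control, and the difference was 2.43-fold (log2 1.28, SE 0.28, edgeR adjusted p = 0.0372). Low intensity 3, at 75.3 CPM, was close to control 6, at 74.8 CPM. This call was lost when control 1, control 2, control 3, control 5, low intensity 1, low intensity 2, low intensity 5, actuated 1 or actuated 4 was left out, with adjusted p up to 0.12 and log2 fold changes from 1.10 to 1.45 over the 21 omissions. The number of the 41 genes called was 0 without control 1, control 2, control 5, low intensity 1, low intensity 2, low intensity 5, actuated 1 or actuated 4, and 12 without low intensity 3, 8 without high intensity 3, 4 without low intensity 4 and 2 without control 6, high intensity 2 or high intensity 6. The share of all genes called ran from 0.0137% to 0.293% in the omissions with 0. It was 1.8% without low intensity 3, 1.52% without high intensity 3 and 0.845% without low intensity 4. Without control 6, high intensity 2 and high intensity 6 it was 1.01%, 0.632% and 0.715%. Without control 3 the 1 gene of the 41 called was Mcm7, where 0.368% of all genes were called. With all 26 libraries 0 were called, where 0.0268% of all genes were, and 24 had an unadjusted p under 0.05, where 5.23% of all genes did.

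Mki67 in low intensity stood at 276, 168.5, 97.1, 141 and 256 CPM, from below the lowest control to above the highest (log2 0.66, SE 0.25, edgeR adjusted p = 0.19). Bub1b gave 40.1, 25.8, 12.9, 13.3 and 44.55 CPM without overlap (log2 1.56, SE 0.38, edgeR adjusted p = 0.0554). Bub1 gave 10.5, 7.49, 5.11, 15.2 and 9.18 CPM, all above the highest control (log2 2.79, SE 0.70, edgeR adjusted p = 0.0582). Low intensity 1 and 5 led for Mki67 and Bub1b, whereas low intensity 4 led for Bub1. Rrm1 gave 58.65, 64.8, 42.2, 46.8 and 59.9 CPM and only just cleared control 2. Cenpe gave 90.5, 62.2, 39.2, 41.7 and 149 CPM. Cdk1 gave 41.2, 20.6, 7.49, 13.3 and 39.8 CPM. In Cenpe and Cdk1, low intensity 3 and 4 lay inside the control range.

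Aurka gave 21.3, 8.62, 4.43, 9.48 and 17.7 CPM in low intensity. Ube2c gave 21.9, 16.85, 5.79, 11.4 and 18.7 CPM. Ttk gave 9.13, 10.1, 1.70, 3.79 and 11.2 CPM. In all 3, low intensity 3 was the lowest and lay within the control range. Prc1 gave 58.65, 34.5, 28.3, 44.3 and 75.2 CPM, with low intensity 2 and 3 within the control range. Mcm2 gave 32.4, 20.6, 19.4, 17.1 and 41.8 CPM, with low intensity 2, 3 and 4 within it. The remaining 3 genes overlapped the controls as well. Pcna gave 54.8, 40.1, 23.2, 25.3 and 27.9 CPM. Ccne2 gave 11.1, 6.74, 5.45, 6.96 and 15.99 CPM. Mad2l1 gave 8.58, 5.62, 8.52, 6.32 and 13.9 CPM, every library of it inside the control range. For Pcna and Mad2l1 the log2 fold changes were 0.11 (SE 0.23) and 0.01 (SE 0.39). By role, the unadjusted threshold was passed by 4 of 11 origin and fork genes, 2 of 3 of nucleotide supply, 0 of 4 G1/S regulators, 3 of 4 cyclins and Cdk1, 2 of 3 mitotic kinases, 5 of 6 checkpoint genes and 10 of 10 chromosome and spindle genes.

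**Figure D3:**
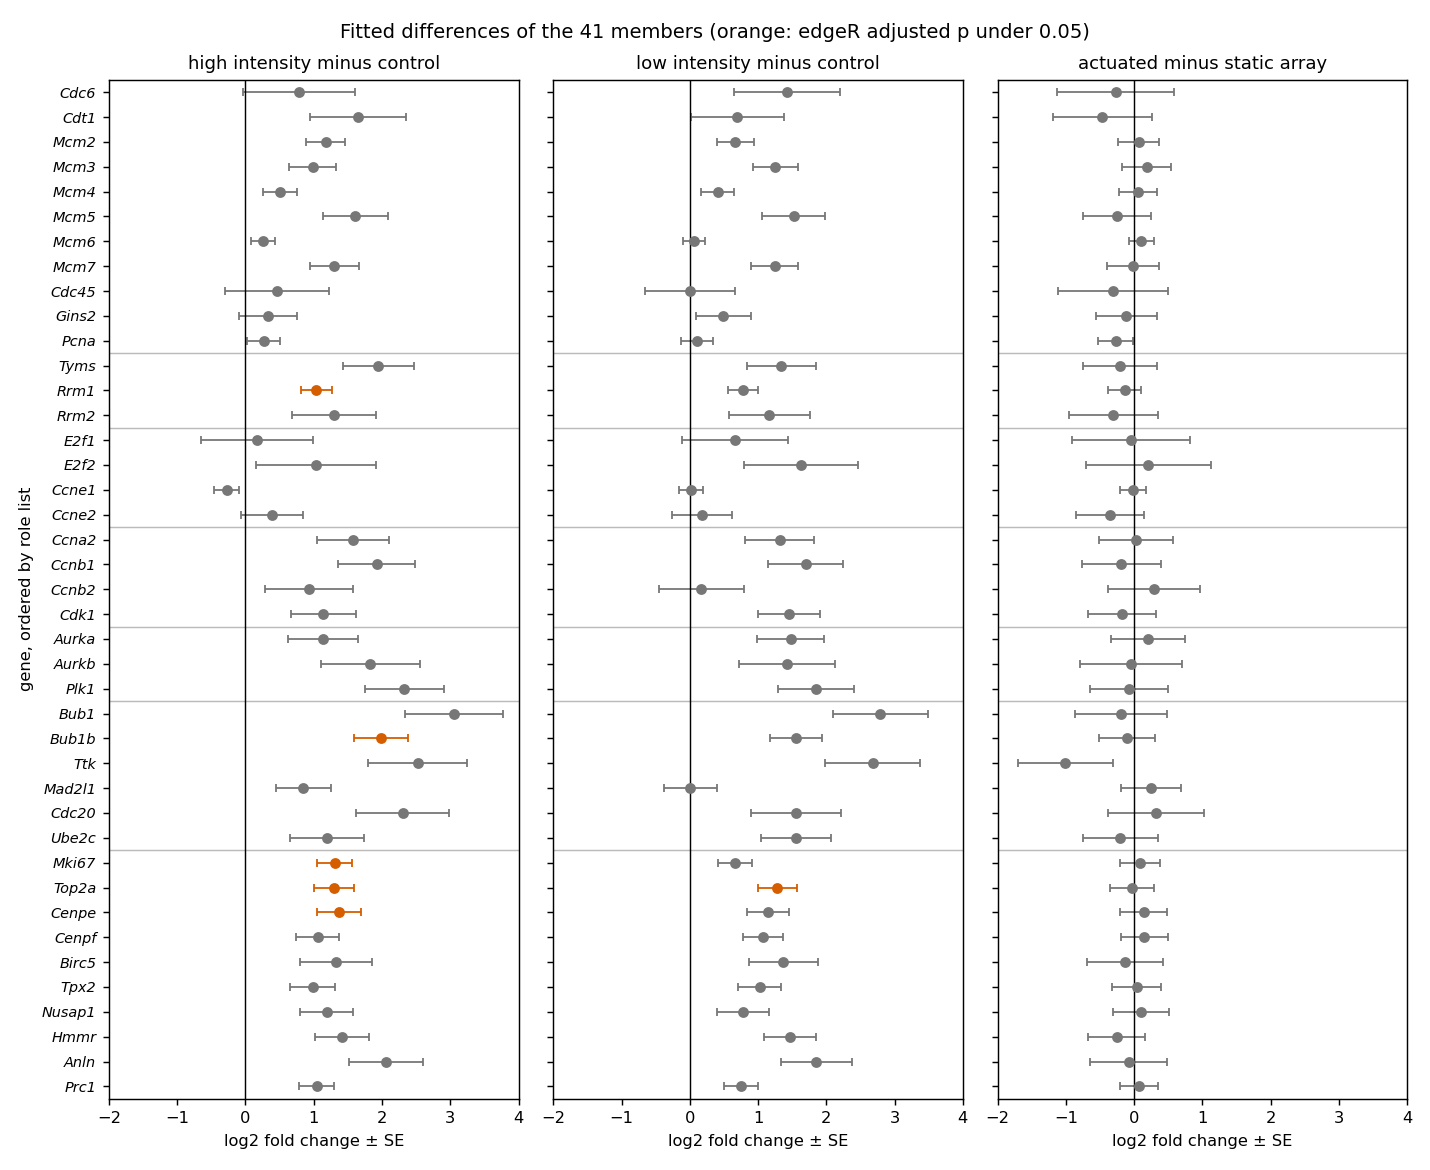
Fitted log2 fold change ± SE of the 41 genes, in role order from replication origin at the top to cytokinesis at the bottom, for high and low intensity, each against control, and actuated against static array. Orange marks an edgeR adjusted p under 0.05 (5, 1 and 0 genes), and the left and middle panels, which share controls, lie mostly right of 0 while the right panel is centred near 0, with a median of -0.04.

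High intensity was set against low intensity directly. None of the 41 genes was called by edgeR, where 0% of all genes were, and 2 of 41 had an unadjusted p under 0.05, where 7.68% of all genes did. These were Mki67 (log2 0.64, SE 0.26, unadjusted p = 0.0193, edgeR adjusted p = 0.584) and Mad2l1 (log2 0.84, SE 0.40, unadjusted p = 0.0494, edgeR adjusted p = 0.647). Mcm2 came next, at 0.51 (SE 0.28, unadjusted p = 0.0788). The groups overlapped for all 3. The median over the 41 genes was 0.20 with 27 of 41 above 0, where 51.5% of all genes were, but without high intensity 3 the median was -0.24 and 7 were above 0. On the TPM scale, log2(TPM + 1), the median was -0.05 with 16 above 0, where the median of all genes was -0.10. The direction between the groups therefore rested on high intensity 3. On the TPM scale both medians were below 0, that of the 41 genes slightly less so than that of all genes.

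In the mechanical arm, the question was whether daily movement of the array went with a different level of these transcripts. None of the 41 genes was called by edgeR between actuated and static arrays, where 0% of all genes were, and none had an unadjusted p under 0.05, where 0.38% of all genes did. DESeq2 and limma also called 0 of the 41. The spread behind the edgeR p-values was estimated over the libraries of both arms. The 0.38% is far below the share that an unadjusted threshold of 0.05 passes when nothing differs. The test was thus strict here, and 0 of 41 does not show that the levels were equal. The median log2 fold change was -0.04, with 16 genes above 0, where 49.8% of all genes were, and 25 below. On the log2(TPM + 1) scale, where the median of all genes was 0.11, 26 were above 0. Mki67 gave 138, 146 and 208 CPM in static 1, 2 and 4 and 166, 135, 203 and 193 CPM in actuated 1 to 4 (log2 0.09, SE 0.29). Top2a gave 106, 109 and 158 CPM with the static array and 108, 99.3, 152 and 125.5 CPM with the actuated array (log2 -0.03, SE 0.32). Both ranges overlapped almost entirely.

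The 3 smallest p-values of that comparison were those of Ttk, Pcna and Ccne2. Ttk gave 4.64, 6.18 and 7.03 CPM in static and 1.96, 4.13, 3.31 and 2.32 CPM in actuated libraries. It was the 1 gene of 41 whose actuated libraries all lay below the static ones, where 2.23% of all genes did (log2 -1.01, SE 0.70, unadjusted p = 0.161, edgeR adjusted p = 1). Pcna gave 41.95, 45.0 and 49.9 CPM in static and 36.3, 26.1, 48.45 and 40.4 CPM in actuated libraries (log2 -0.27, SE 0.26, unadjusted p = 0.301). Ccne2 gave 7.58, 7.51 and 8.14 CPM and 7.83, 3.19, 8.06 and 5.13 CPM (log2 -0.36, SE 0.49). Both overlapped.

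For the other genes followed library by library, the static and actuated values also overlapped. Bub1b gave 16.4, 24.3 and 33.5 CPM in static and 13.96, 17.9, 33 and 27.0 CPM in actuated libraries. Rrm1 gave 49.4, 48.7 and 63.6 CPM in static and 44.6, 50.5, 51.4 and 48.85 CPM in actuated libraries. Cenpe gave 38.7, 49.7 and 46.7 CPM in static and 46.6, 49.6, 50.4 and 51.5 CPM in actuated libraries. Replicates lay close together for Rrm1 and Cenpe and spread over more than a doubling for Bub1b. Bub1 gave 4.30, 9.598 and 9.74 CPM in static and 5.74, 5.63, 7.06 and 9.16 CPM in actuated libraries. Cdk1 gave 9.27, 16.6 and 20.1 CPM in static and 10.96, 8.36, 18.9 and 16.2 CPM in actuated libraries. Aurka gave 6.56, 6.70 and 3.58 CPM in static and 8.35, 5.45, 7.17 and 5.01 CPM in actuated libraries. Of these only Aurka was lowest in static 4, the library that was highest of its group for 32 of the 41 genes. Prc1 gave 39.35, 39.65 and 57.2 CPM in static and 44.6, 41.1, 56.2 and 48.2 CPM in actuated libraries. Mcm2 gave 22.7, 25.1 and 27.1 CPM in static and 18.4, 25.1, 36.5 and 24.4 CPM in actuated libraries. In both, the range of one group lay within that of the other. Ube2c gave 9.95, 13.4 and 13.7 CPM in static and 5.87, 9.30, 14.8 and 12.95 CPM in actuated libraries. Mad2l1 gave 9.05, 7.14 and 9.98 CPM in static and 9.66, 9.30, 11.3 and 10.99 CPM in actuated libraries. Neither gene separated the groups.

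Static arrays were also set against the biochemical controls, which belong to the other arm and were sequenced less deeply. Arm and depth cannot be told apart, and the controls are those of the comparisons above. Mitochondrial and rRNA genes took 12.5% to 19.1% of counts in the fitted controls and 8.66% to 9.82% in static libraries. This difference cannot be told apart from arm and depth either. None of the 41 genes was called by edgeR, where 0.713% of all genes were, and 13 of 41 were higher at an unadjusted p under 0.05, where 6.1% of all genes were. The static libraries stood above all controls without overlap for 14 of 41, where this held for 4.52% of all genes. In all, 40 of 41 were above 0, where 49.7% of all genes were, with a median of 0.68, or 1.61-fold. Bub1 (log2 2.54, SE 0.73, edgeR adjusted p = 0.107), Top2a (1.07, SE 0.31, adjusted p = 0.109) and Bub1b (1.39, SE 0.41, adjusted p = 0.114) had the smallest p-values. With high intensity 3 left out of the shared fit, 1 gene of the 41, Top2a, was called, where 0.939% of all genes were. Mki67 was at 0.46 (SE 0.28), and its lowest static library, at 138 CPM, lay above its highest control, at 133 CPM. Cenpe was at 0.37 (SE 0.34), with groups that overlapped.

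In the treated and array groups, single libraries stood at the top or bottom of their group for many of the 41 genes, whereas no control was highest for more than 10 or lowest for more than 14. Summed over the 41, the controls held 693, 672, 791, 645 and 828 CPM, the low-intensity libraries 1905, 1211, 774, 951 and 1987 CPM and the high-intensity libraries 1422, 1202, 2759 and 962 CPM. The static libraries held 962, 1098 and 1370 CPM and the actuated ones 1022, 975.5, 1390 and 1199 CPM. All high-intensity, static and actuated libraries lay above every control, and low intensity 3 did not. The ratio of mean sums was 2.19 for high intensity against control, 1.88 for low intensity against control and 1.00 for actuated against static. High intensity 6 was the lowest of its group for 27 of the 41 genes and low intensity 3 for 27, and actuated 3 was the highest of its group for 32. Over the 21 libraries, the deviations of log2 level from the group means had a median correlation of 0.42 across the 820 pairs of genes, and of 0.33 without high intensity 3. This is a description, since the pairs share libraries and depth, and no value for pairs of other genes stands beside it.

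Markers of other cell types also differed between these libraries. The summed level of 10 neural progenitor markers ran from 1265 to 1659 CPM in the controls, 1553 to 3239 in low intensity, 1521 to 2442 in high intensity, 1805 to 1996 in static and 1731 to 1829 in actuated libraries. Its highest values were in low intensity 5 (3239 CPM) and low intensity 1 (3043 CPM), and within high intensity it was highest in high intensity 3. Of the 10 markers, 6 were above 0 and 4 below in both comparisons with control. Of all genes, 50.3% were above 0 in high and 49.1% in low intensity. The medians of the 10 were 0.18 in high and 0.14 in low intensity. In low intensity 2 were higher and 1 lower at an unadjusted p under 0.05, where 8.57% of all genes were higher. On the TPM scale 10 of 10 were above 0, where the median of all genes was also above 0. Vim, an intermediate filament of progenitors and mesenchyme, rose 2.02-fold in low intensity (log2 1.01, SE 0.22, edgeR adjusted p = 0.0352) but missed the threshold without control 1, control 5, low intensity 1, low intensity 2 or low intensity 5. Nes, the progenitor filament nestin, rose 2.69-fold (log2 1.43, SE 0.33, edgeR adjusted p = 0.0443) and missed it in 16 of the 21 omissions, holding only without low intensity 3, low intensity 4, high intensity 3, high intensity 6 or actuated 2.

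The 8 neuron markers summed to 3716 to 4069 CPM in the controls, 2866 to 4035 in low intensity and 2577 to 3871 in high intensity, lowest in high intensity 3. All 8 were below 0 in high intensity and 7 of 8 in low intensity, whereas on the log2(TPM + 1) scale 7 of 8 were above 0 in both, with 8 and 7 of 8 still below the median of all genes there. Elavl4, a neuronal RNA-binding protein, fell in low intensity (log2 -0.59, SE 0.13, edgeR adjusted p = 0.037), a call lost on the log2(TPM + 1) scale (-0.05, limma adjusted p = 0.872) and without control 1, control 2, control 5, low intensity 1, low intensity 2, low intensity 5, actuated 1, actuated 4, static 1 or static 2. The 7 fibroblast markers, which would also mark feeder cells, summed to 364 to 929 CPM in the controls, 940 to 2416 in high intensity and 276 to 2582 in low intensity. All 7 were above 0 in both comparisons, 4 in high and 1 in low intensity at an unadjusted p under 0.05. Of all genes, 8.67% and 8.57% were higher at that threshold. Their highest sum in high intensity was in high intensity 2, while high intensity 3 held 1095 CPM. Skeletal muscle markers summed to 8.46 to 69.25 CPM in the controls and 16.5 to 171 CPM in high intensity. Of the 8, 3 were fitted. In high intensity all 3 were above 0, with a median of 2.17 and 2 at an unadjusted p under 0.05. In low intensity 2 were above 0 and 1 below, with a median of 1.27 and 1 higher at that threshold. The defining genes Myog, Ckm and Myf5 had no count in 18, 18 and 16 of the 21 libraries. The part of these cell types in the levels of the 41 genes was not tested.

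Other marker lists also differed between static libraries and controls. The oligodendrocyte markers summed to 147 to 414 CPM in static libraries, beside 54.0 to 114 CPM in the controls. The 6 astrocyte markers summed to 3140 to 3842 CPM, beside 2098 to 2836 CPM, with all 6 above 0 and 4 at an unadjusted p under 0.05. Of all genes, 6.1% were higher at that threshold. The sum of the neural progenitor markers, given above, did not overlap either. The motor neuron markers went the other way, at 73.7 to 89.1 CPM in static libraries beside 105 to 162 CPM in the controls, with 5 of the 6 fitted below 0 (3 of 6 on log2(TPM + 1), where all 6 lay below the median of all genes) and 3 at an unadjusted p under 0.05. Among them Slc5a7, the choline transporter of cholinergic neurons, was lower there (8.77 ± 3.76 CPM, SD, n = 3, against 32.5 ± 8.86, SD, n = 5, log2 -1.88, SE 0.31, edgeR adjusted p = 0.00392), and passed the threshold in all omissions except that of static 4 (adjusted p = 0.0562), but missed it with all 26 libraries (log2 -1.42, adjusted p = 0.59) and on log2(TPM + 1) (-0.80, limma adjusted p = 0.208). The part of these cell types in the static and control difference was not tested either.

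**Figure D4:**
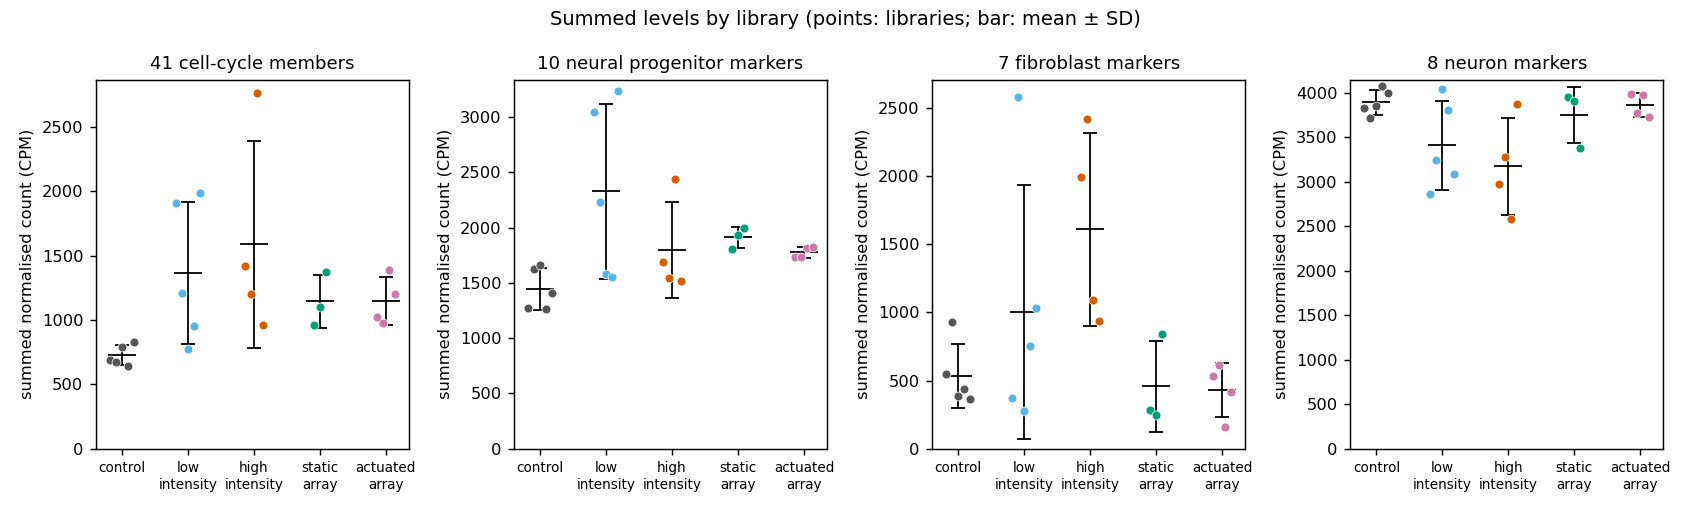
Summed CPM by library (linear axes from 0, points are libraries, bars mean ± SD) for the 41 cell-cycle genes, 10 neural progenitor, 7 fibroblast and 8 neuron markers in the 5 groups. The highest sums of the 41 genes are in high intensity 3 (2759 CPM), low intensity 5 (1987 CPM) and low intensity 1 (1905 CPM), and the neuron sum of high intensity 3 (2577 CPM) is the lowest of all.

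Beyond the 41, a list of 97 other cell-cycle genes was followed, 96 of which were fitted. In high intensity 37 were higher and 1 lower at an unadjusted p under 0.05, and in low intensity 32 and 0, with medians of 0.40 and 0.44. Of all genes, 8.67% in high and 8.57% in low intensity were higher at that threshold, the shares to set beside each count below. The 28 other mitotic genes gave more of these than any other list, with 19 and 15 higher and medians of 0.93 and 0.80. Among 26 other origin and fork genes, 4 and 6 were higher, and among 8 other S-phase supply genes 4 and 4. Of the 6 G1 cyclins and their kinases, which act before commitment to S phase, 5 and 2 were higher. The 7 CDK inhibitors, which hold cells out of the cycle, had medians of 0.02 and 0.09 with 0 and 1 higher. On the log2(TPM + 1) scale, where the medians of all genes were 0.53 and 0.64, those of the inhibitors were 0.63 and 0.85. Their summed level was 180 to 239 CPM in the controls, 185 to 271 in low intensity and 182 to 225 in high intensity. The 16 pocket proteins, other E2F factors and DREAM or MuvB subunits had 5 and 4 higher.

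Knl1, the kinetochore scaffold that recruits Bub1 and BubR1, was the 1 gene of the 96 fitted that was called, where 0.462% of all genes were called in high and 0.597% in low intensity, so that 1 call among 96 lies near the background. It rose from 5.93 ± 3.33 CPM (SD, n = 5) in the controls to 23.4 ± 17.6 (SD, n = 4) in high intensity (log2 1.95, SE 0.43, edgeR adjusted p = 0.0435) and to 20.9 ± 5.92 (SD, n = 5) in low intensity (log2 1.80, SE 0.41, edgeR adjusted p = 0.042). In high intensity it was no longer called without control 1, 2, 3 or 5, high intensity 1, 2 or 3, actuated 1, 2 or 4, or static 1 or 2. In low intensity it was no longer called without control 1, 2, 3 or 5, low intensity 1, 2, 4 or 5, high intensity 1, actuated 1, 3 or 4, or static 1 or 2. In the other comparisons none of the 97 was called. The smallest p-values there were those of Pold1, a polymerase delta subunit, between high and low intensity (log2 0.88, SE 0.40, edgeR adjusted p = 0.619), of Orc2, an origin subunit, between actuated and static arrays (log2 -0.29, SE 0.21, edgeR adjusted p = 1) and of Cdca8, borealin, between static and control (log2 1.27, SE 0.40, edgeR adjusted p = 0.146).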

How the data were processed

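RNA sequencing of 26 libraries in 5 groups was analysed. The authors deposited estimated counts per gene as whole numbers (taken as estimated counts, so no rounding was needed) and TPM, which sum to 1000000 in each library. BWA 0.7.12-r1039, bedtools 2.25.0, STAR and Salmon and the builds mm10, hg19 and GRCm39 are named in the submitters' processing notes. Which of them made the tables is not given in the sources used here, nor are the annotation and strand setting. Per the labels' protocols, libraries came from low-input total RNA with ZapR depletion of rRNA. The 41 genes, the gene lists, the depth minimum and the tests were chosen with earlier results of these data known.

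Libraries with under 1000000 counts on protein-coding genes (control 4, low intensity 6, high intensity 4 and 5, static 3) were left out, because they raised the common dispersion from 0.0923 to 0.251. In control 4, mitochondrial and rRNA genes took 78.7% of counts, and in the fitted libraries 7.41% to 19.1%. By group this was 12.5% to 19.1% in the controls, 10.1% to 14.6% in low intensity and 10.3% to 16.7% in high intensity. It was 8.66% to 9.82% in static and 7.41% to 12.9% in actuated libraries. TMM factors ran from 0.852 to 0.971 in the controls and from 0.954 to 1.085 in the other fitted libraries. All 325 pairs of libraries differed beyond sampling noise. The 21 others were fitted in a single model with edgeR 4.0.16 (R 4.3.3; TMM, filterByExpr, quasi-likelihood F-test, Benjamini-Hochberg over 14730 genes, called at an adjusted p under 0.05). The script was tested on simulated data. Values were printed by library for Mki67, the member of highest TPM in each of 7 role lists, the called members and the 3 of smallest p in each comparison. Other genes were named where called, or as the smallest p of the other cell-cycle lists in a comparison. Alternatives used DESeq2 1.42.0, limma 3.58.1 (voom, and log2(TPM + 1) or log2(TPM + 0.1)), other filters, scaling and library sets, a replicate block and omission of each library.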

Additional observations from a re-analysis of the deposited data

Results flagged for a closer look

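Among 64 sets of 4 or 5 libraries, made of the genes followed library by library and the sum of the 41 in each group, 3 had a library whose gap to its nearest neighbour was large for the range of its group by Dixon's criterion at 95%, which chance alone meets in about 1 of 20 sets. Top2a in high intensity 3 stood at 272.2 CPM with the next library at 119.1 CPM. Ube2c in high intensity 3 stood at 23.3 CPM with the next at 9.091 CPM. Ube2c in control 1 had no count, 0 CPM, with the next control at 6.086 CPM.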

How the results depend on the processing

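Every alternative was listed with the tests, and no direction of a called gene turned under any of them. The medians of the 41 genes stayed above 0 in high intensity, low intensity and static libraries, each against control. Those of high against low intensity and of actuated against static took both signs. The number of the 41 genes called in high intensity against control (5) became 14 at an adjusted p under 0.1, 0 with all 26 libraries, 25 with no low-count filter, 2 with only the 2 groups compared, 17 with the DESeq2 Wald test, 0 with limma voom, 26 on log2(TPM + 1) and 25 on log2(TPM + 0.1), where 1.88% of all genes were called with no filter, 0.13% with only the 2 groups, 3.16% with DESeq2 and 15.8% and 15.6% on the TPM scales. It was 6 with DESeq2 size factors, with a 1 CPM minimum in 4 libraries and with mitochondrial and rRNA genes removed. In low intensity against control (1) it became 11, 0, 22, 0, 14, 0, 29 and 30 under the same settings in that order, where 1.77%, 3.19%, 36.9% and 37.6% of all genes were called with no filter, with DESeq2 and on the TPM scales, and 2 with the filter of 1 CPM. In static against control (0) it became 13 with no filter, 1 with only the 2 groups, 3 with DESeq2, 12 on log2(TPM + 1) and 14 on log2(TPM + 0.1), where 1.23%, 0.315%, 2.58%, 7.41% and 7.77% of all genes were called. High against low intensity (0) gave 1, Mki67, with no filter, where 0.338% of all genes were called, and actuated against static gave 0 throughout. The median log2 fold change of the 41 moved to 1.78 on log2(TPM + 0.1) in high intensity, and in static against control to 1.13 on log2(TPM + 1) and 1.54 on log2(TPM + 0.1). The TPM scale moved the median of all genes by 0.53 and 0.64 in high intensity, 0.64 and 0.75 in low intensity and 0.50 and 0.62 in static against control. The cause was not tested. Among genes outside the 41, the calls of Knl1 in both comparisons and of Nes, Vim and Elavl4 in low intensity were lost with all 26 libraries, with the replicate block, with only the 2 groups compared and with limma voom, at the same sign.

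With 1 library left out at a time, the number of the 41 called ran from 0 to 17 in high intensity, 0 to 12 in low intensity and 0 to 1 in static against control, and the medians from 0.76 to 1.38, 1.00 to 1.40 and 0.55 to 0.83. The share of all genes called ran from 0% to 2.7%, 0.0137% to 1.8% and 0.115% to 0.964%. High against low intensity gave medians from -0.24 to 0.36, and actuated against static from -0.19 to 0.09, with 0 called in each. Where an omission left 3 libraries in high intensity or 2 in static, their spread came from the shared fit.

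Replicate numbers were entered as a replicate block, although same-numbered libraries did not deviate together (correlations of deviations from -0.22 to 0.18), so the numbers give no pairing. With the block, 0 of the role-list genes were called in high intensity, 0 in low intensity and 0 in static, each against control. Of the same genes, 0 were called in high against low intensity and 0 in actuated against static. At an unadjusted p under 0.05 there were 27 of them in high and 25 in low intensity against control. Genes outside the role lists are not in these counts.

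In the 5 controls, at 2273487 to 3771637 counts a library, Bub1 and E2f2 had no count in 3 and Ttk, Cdc6 and Aurkb in 2, and a fold against such values is imprecise. Low intensity 4, the shallowest fitted library at 1551334 counts, had 0 of the 41 genes without a count.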
